A study of Mus musculus with 6 samples.

Results

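The comparison set 2 libraries labelled sarcoma against 2 labelled fibroblasts, 4 of the 6 libraries of the series, with the treatment arm as a block. All 4 came from mouse cells with homozygous floxed Mdm2 and no p53 (Mdm2fl/fl p53-/-). The sarcoma cells were grown for a short time from tumour tissue of such mice. The fibroblasts were expanded from ear tissue in the same medium. Per the labels, cells carried a retrovirus with CreERT2 (a Cre recombinase that 4-hydroxytamoxifen activates) and GFP, or GFP alone, and the labels do not say which virus each library had. In the 4OHT arm cells received 4-hydroxytamoxifen for 48 hours, and these libraries are labelled Mdm2-deleted; in the EtOH arm they received the ethanol vehicle. Each label has 1 library in each arm, and nothing states how many mice or cultures stand behind it, so the tests speak of these libraries, whose spread may be technical. The names sarcoma, fibroblasts and lymphoma stand here for the labels alone. The reason is that the T cell, muscle and mesenchymal markers given later had similar summed levels under each label within an arm. Haemoglobin RNA at low level, also given later, did differ between labels. Whether the libraries hold the cells they are labelled with was not tested, which bears on the meaning of every difference between labels. RNA was sequenced after ribosomal RNA removal, and depth was 27981244 to 37517726 estimated counts a library.

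Small nuclear RNAs (snRNAs) are the RNA cores of the spliceosome, which removes introns: U1 pairs with the 5' splice site, U2 with the branch point, U4 holds U6 inactive until splicing starts, and U11 and U12 serve a rare class of introns. Small nucleolar RNAs (snoRNAs) guide the modification or cutting of ribosomal RNA, and U3 is needed to cut its precursor. Y RNAs are short polymerase III transcripts bound by the Ro and La proteins. A sarcoma is a tumour of mesenchymal cells, so sarcoma and fibroblasts share many mesenchymal markers.

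Most genes called between the labels were such RNAs, and few messenger RNAs passed the test. Of 15990 genes tested, 84 (0.525%) passed edgeR's quasi-likelihood test at an adjusted p under 0.05. The rule further asked for 5 CPM or more on average (CPM being a read count scaled to library depth, here with TMM, a correction for library composition). Of 10841 such genes, 58 (0.535%) were called higher in sarcoma and 11 (0.101%) lower, with the same direction in both arms. Of the 58, 49 were snRNAs, snoRNAs or scaRNAs (their Cajal body relatives). Only 5 of 9876 protein-coding genes were called higher and 2 lower. The calls depended strongly on the tool: DESeq2 called 12 higher and 2 lower under the same rule, limma on TPM called 0, and edgeR without the arm block called 0. At an unadjusted p under 0.05 these gave 93 higher and 46 lower for DESeq2, 180 and 180 for limma with a pseudocount of 1, and 46 and 5 without the block.

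The sequences of the RNA families that carried the difference are printed from GENCODE M21 (GRCm38), 1 copy each, chosen after their values were seen. Capitals mark the U1 letters that pair with the 5' splice site, the U2 and U12 letters that pair with the branch point, the protein-binding Sm site of U4, the letters of box C in U3, and the final T run of Y1 and Y3.
U1 (Rnu1a1, chr11:87422867-87423030, plus strand): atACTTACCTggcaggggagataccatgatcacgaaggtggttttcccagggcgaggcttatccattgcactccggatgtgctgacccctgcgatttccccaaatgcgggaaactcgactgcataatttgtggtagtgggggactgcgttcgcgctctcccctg
U2 (Rnu2-10, chr11:101658238-101658428, plus strand): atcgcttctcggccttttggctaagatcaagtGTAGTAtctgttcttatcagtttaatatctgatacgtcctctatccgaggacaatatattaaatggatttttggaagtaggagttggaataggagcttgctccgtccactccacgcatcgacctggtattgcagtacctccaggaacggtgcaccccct
U4 (Gm24407, chr5:115490254-115490394, plus strand): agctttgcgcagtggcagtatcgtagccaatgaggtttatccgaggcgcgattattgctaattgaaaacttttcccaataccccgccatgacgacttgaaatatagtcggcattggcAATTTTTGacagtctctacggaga
U12 (Rnu12, chr15:83149644-83149794, plus strand): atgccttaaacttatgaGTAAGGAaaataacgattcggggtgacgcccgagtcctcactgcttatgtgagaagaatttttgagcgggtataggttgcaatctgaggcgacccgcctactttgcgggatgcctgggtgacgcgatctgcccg
U3 (Rnu3b1, chr11:87443237-87443452, plus strand): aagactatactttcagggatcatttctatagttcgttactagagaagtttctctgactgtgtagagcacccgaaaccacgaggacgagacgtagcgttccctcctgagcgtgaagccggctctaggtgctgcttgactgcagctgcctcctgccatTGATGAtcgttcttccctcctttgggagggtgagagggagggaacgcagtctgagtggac
Y1 (Rny1, chr6:47788069-47788180, minus strand): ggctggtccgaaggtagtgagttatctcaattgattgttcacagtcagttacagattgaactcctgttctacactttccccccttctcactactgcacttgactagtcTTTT
Y3 (Rny3, chr6:47781624-47781725, plus strand): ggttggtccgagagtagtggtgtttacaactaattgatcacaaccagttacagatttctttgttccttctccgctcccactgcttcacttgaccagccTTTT

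Many copies of these genes are identical, and the counting splits reads evenly between them, so the 69 called genes are not 69 independent results. Near-identical copies (at least 80% alike) were therefore also summed, an alternative added after the data were seen, which called 30 higher and 10 lower. After joining such copies the 69 genes came to 37 groups, 28 higher and 9 lower. The family values that follow are from that fit, in summed TMM-scaled CPM.

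U4 had the smallest adjusted p of the families. Its level was 89.8 in fibroblasts 4OHT, 74.1 in fibroblasts EtOH, 231 in sarcoma 4OHT and 138 in sarcoma EtOH. Both sarcoma libraries lay above both fibroblast libraries, with a log2 fold change of 1.13 ± 0.08 (SE, n = 2 libraries a label, edgeR adjusted p = 7.6e-09). The U4 log2 ratio was 1.36 in the 4OHT arm and 0.90 in the EtOH arm. Each SE and p-value in this report uses a spread moderated over all genes, with 1 residual degree of freedom. They do not measure the spread between replicates of a label. U1 stood at 1837 and 1818 in fibroblasts 4OHT and EtOH and at 4588 and 2752 in sarcoma (log2 fold change 0.96 ± 0.12, edgeR adjusted p = 5.3e-05). U3 stood at 1175 and 1165 in fibroblasts and at 2933 and 1805 in sarcoma (0.98 ± 0.11, edgeR adjusted p = 2.4e-05). In U1 and U3, as in U4, the groups did not overlap and the 4OHT arm had the larger gap. These families, like the genes given below, were called on the same values. A lack of overlap is therefore a description, here and below, and no further support. The log2 ratio for U1 was 1.32 in the 4OHT arm and 0.60 in the EtOH arm. U2 stood at 1501 and 1614 in fibroblasts and at 3640 and 1938 in sarcoma (0.77 ± 0.14, edgeR adjusted p = 0.0081), and its EtOH gap was 0.26. U12 was 25.5 and 21.2 in fibroblasts against 46.6 and 29.2 in sarcoma (0.67 ± 0.09, edgeR adjusted p = 1.3e-04).

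Both Y RNAs were also higher. Rny3 was 22.6 and 21.2 CPM in fibroblasts 4OHT and EtOH and 41.3 and 37.7 in sarcoma, a gap of 0.86 and 0.82 on the log2 scale, nearly equal in the arms. Rny1 was 13.9 and 17.1 in fibroblasts and 34.0 and 25.8 in sarcoma, with arm gaps of 1.26 and 0.58. Among the remaining families none passed: U5 (log2 fold change 0.48, edgeR adjusted p = 0.098), U11 (0.48, edgeR adjusted p = 0.65), U6, U7, the nuclease RNAs RMRP and RPPH1, 7SL of the signal recognition particle, and 7SK, which holds back transcription elongation, at -0.25 (edgeR adjusted p = 0.70). Of these, 7SK, 7SL and RPPH1 had lower values in sarcoma 4OHT than in fibroblasts 4OHT. In U5, U11 and RMRP both sarcoma libraries lay above both fibroblast libraries, though these families were not called. Of the 3 U5 genes at 5 CPM or more, 2 were called higher as single genes. They were Gm25313 (0.94, edgeR adjusted p = 0.0016) and Gm25099 (0.70, edgeR adjusted p = 0.044). The lymphoma libraries, treated for 6 hours, had U4 at 117 and 116, above fibroblasts and below sarcoma in each arm. The same order held for U1, U2, U3 and Y1. For U12 and Y3, lymphoma EtOH (29.4 and 38.8) stood slightly above sarcoma EtOH (29.2 and 37.7). Lymphoma EtOH was also above sarcoma EtOH for U5, U11 and RMRP.

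**Figure D1:**
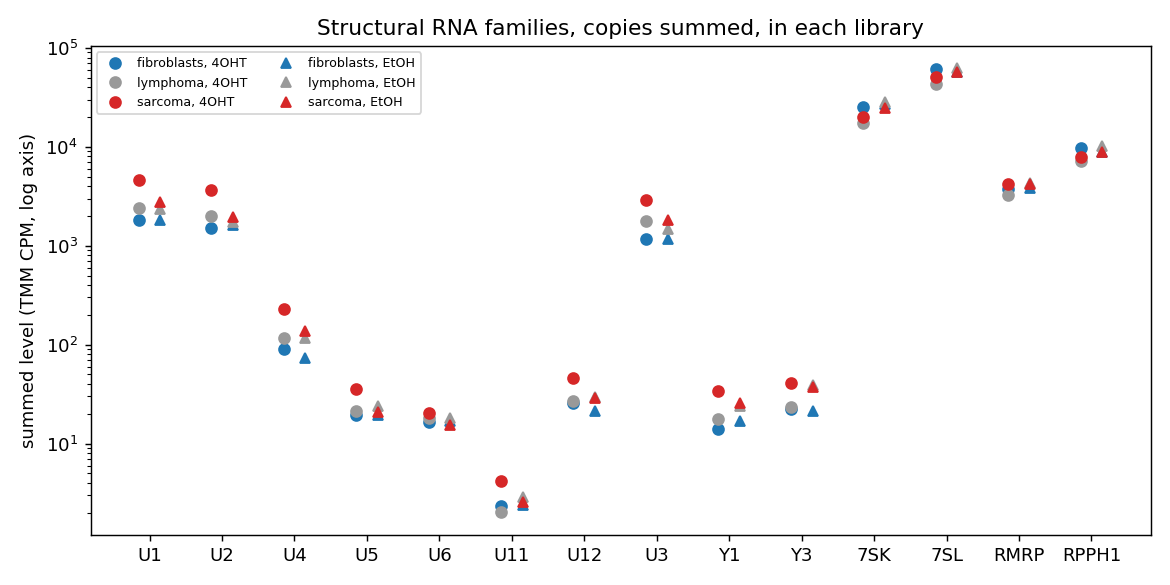
Summed level of each structural RNA family (TMM-scaled CPM, log axis) in each of the 6 libraries, circles for 4OHT and triangles for EtOH. For U1, U2, U3, U4, U12, Y1 and Y3 both sarcoma libraries lie above both fibroblast libraries. The same holds for U5, U11 and RMRP, which were not called, and not for U6, 7SK, 7SL and RPPH1.

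Among single genes, 30 of 33 snRNA genes and 18 of 54 snoRNA genes at 5 CPM or more were called higher, against 0.535% of all genes at that level. Many are copies: after joining near-identical ones, the 30 snRNA calls came to 5 groups and the 18 snoRNA calls to 13. Gm24407, a U4 copy, was 40.0 and 32.7 CPM in fibroblasts 4OHT and EtOH and 103 and 65.0 in sarcoma, with a log2 fold change of 1.18 ± 0.08 (edgeR adjusted p = 4.5e-07). Snord17 was 45.7 and 44.3 in fibroblasts against 134 and 64.2 in sarcoma, and Snora23 was 8.29 and 8.62 against 28.6 and 10.7. For both, the groups did not overlap and most of the gap lay in the 4OHT arm. The vault RNA Vaultrc5, part of a large cytoplasmic particle, had a log2 fold change of 1.22, with arm gaps of 1.62 and 0.60. DESeq2 kept the calls of Gm24407, Gm24265, Rnu1b1, Rnu1b2, Rnu12 and Rny3, and not those of Rnu1a1, Rnu2-10, Snord17, Snora23, Rny1, Vaultrc5, the Rnu3b genes or the first Rnu3a entry named next. In the fit on all 6 libraries, Rnu12 (edgeR adjusted p = 0.082), Rnu2-10 (0.18) and Snora23 (0.12) were not called. Rny3, Snord17 and Vaultrc5 were called in that fit and lost their calls when sarcoma 4OHT was left out of it (edgeR adjusted p = 0.30, 0.16 and 0.21). Rnu3a (ENSMUSG00000106147.1) had the largest log2 fold change of those higher, 2.30, but it overlaps a near-identical Rnu3a entry (ENSMUSG00000065870.2, 0.72), and how reads were split between them makes both values uncertain. By length, snRNAs, snoRNAs and scaRNAs of 151 to 250 bases held 39 of the calls among 45 genes, and those of 101 to 150 bases 10 of 38. The 7 longer ones and the 5 of up to 100 bases held none. After joining copies, the 45 genes came to 15 groups and the 38 to 34, so the counts by length rest largely on copies.

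Genes lower in sarcoma were a different kind of RNA. Mir6236 was 142 and 122 CPM in fibroblasts 4OHT and EtOH and 48.7 and 17.5 in sarcoma, with no overlap (log2 fold change -2.13 ± 0.17, edgeR adjusted p = 2.5e-06). The mitochondrial ribosomal RNA mt-Rnr1 was 909 and 856 in fibroblasts and 589 and 267 in sarcoma (-1.15 ± 0.15, edgeR adjusted p = 3.7e-04). Its partner mt-Rnr2 was 6661 and 6191 against 5061 and 3387 (-0.63). Neither was called in the fit on all 6 libraries (edgeR adjusted p = 0.12 for mt-Rnr1 and 0.27 for mt-Rnr2). The noncoding A430010J10Rik was 187 and 197 against 132 and 81.9 (-0.88). Gm42418 was 1374 and 1031 against 1123 and 688 (-0.44), and here sarcoma 4OHT lies above fibroblasts EtOH. Gm42418 lies at chr17:39846958-39848788, inside the ribosomal RNA entry CT010467.1. CT010467.1 was 15555 and 29403 in fibroblasts 4OHT and EtOH and 16436 and 1981 in sarcoma, so only sarcoma EtOH stood apart, and it was not called (edgeR adjusted p = 0.36). The 5 called lower genes given so far had their larger gap in the EtOH arm, the reverse of the U1 to U4 families. Gm23935, Gm24270 and Gm24245, identical 57-base entries annotated as miRNA, fell by 0.66 with the larger gap in the 4OHT arm (-0.89 against -0.43). Gm42418 and these 3 entries were not called in the fit on all 6 libraries either (edgeR adjusted p = 0.42 and 0.53). The lincRNA Gm10062 was 79.2 and 79.8 against 68.3 and 47.1 (-0.49, edgeR adjusted p = 0.012), with its larger gap in the EtOH arm. It was not called in the fit on all 6 libraries (edgeR adjusted p = 0.12). DESeq2 kept the call of Gm42418 and not those of Mir6236, mt-Rnr1, mt-Rnr2, A430010J10Rik or Gm10062.

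**Figure D2:**
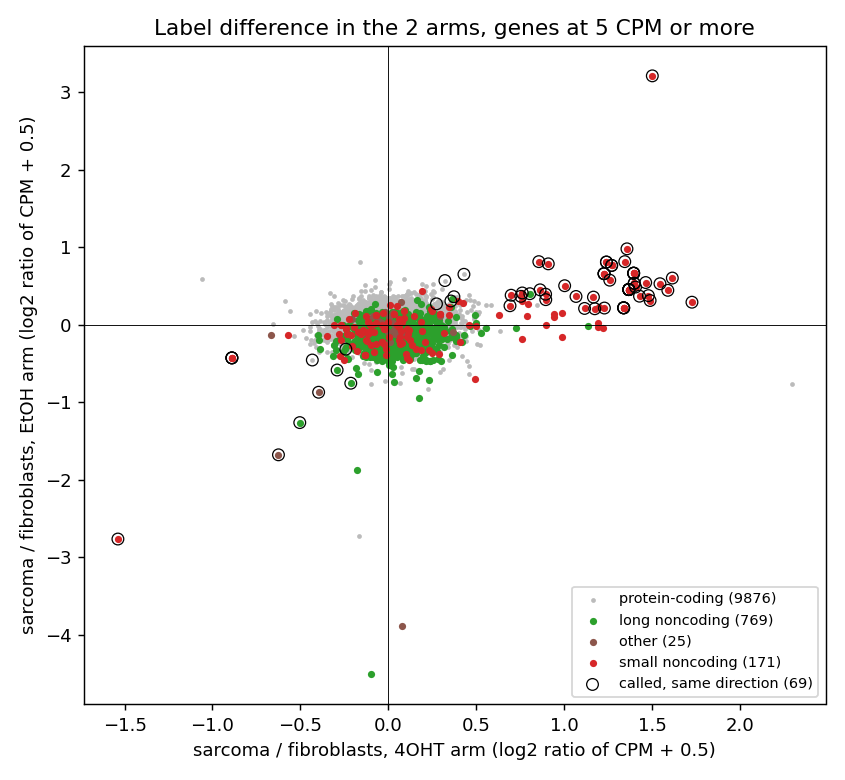
Log2 ratio of sarcoma to fibroblasts in the 4OHT arm (x) and the EtOH arm (y) for genes at 5 CPM or more, coloured by class, with called genes ringed. Of the ringed small noncoding genes, 52 lie to the upper right, most of them further along the 4OHT axis, and 4 to the lower left. Most protein-coding genes lie near 0 in both arms.

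The 2 arms share no library, so they can be set side by side. Across the 10841 genes, 50.1% had the same sign in both arms. Among protein-coding genes 50.2% did, and the correlation across those 9876 genes was 0.04 (Pearson), given as a description since genes are not independent. Among 171 small noncoding genes, many of them copies, 72.5% had the same sign. Only 1 gene was 2-fold higher in both arms (Rnu3a) and 1 was 2-fold lower (Mir6236), 0.0184% of genes. The standard deviation of the log2 ratio over protein-coding genes was 0.121 in the 4OHT arm and 0.125 in the EtOH arm, where the median gene's counting error was 0.068 and 0.064.

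The 7 protein-coding calls were small. Cebpb, a transcription factor of stress and fat cell genes, was 119 and 84.3 CPM in fibroblasts 4OHT and EtOH and 160 and 133 in sarcoma (log2 fold change 0.54 ± 0.07, edgeR adjusted p = 2.6e-04). Gas1, a membrane protein linked to growth arrest, was 97.7 and 140 against 122 and 209 (0.45 ± 0.07, edgeR adjusted p = 0.0019). Mt1, a metal-binding metallothionein, was 72.2 and 49.8 against 93.7 and 64.1 (0.37). For Gas1 and Mt1 the labels overlap, and the gap appears within each arm. Hmgb2, a chromatin protein, rose by 0.33, and Cd248, a surface protein of stromal cells, by 0.27. Pgd, an enzyme of the pentose phosphate pathway, was 90.2 and 83.3 against 76.3 and 66.9 (-0.28). Npcd was 15.1 and 19.8 against 11.1 and 14.3 (-0.46). Npcd overlaps Nptxr on chromosome 15, and Nptxr went the other way (0.41, edgeR adjusted p = 0.050, just outside the threshold), so how reads were split between them leaves both uncertain. DESeq2 kept the calls of Cebpb and Gas1 alone among these 7. In the fit on all 6 libraries Hmgb2, Cd248, Pgd and Npcd were not called. In that fit Cebpb lost its call without sarcoma EtOH, and Gas1 lost it without either sarcoma library. Just inside the threshold stood Cd248 at an edgeR adjusted p of 0.045.

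Of 131 genes tested from 13 lists of cell identity markers, which do not hold Cd248 or the haemoglobin genes, 0 were called by edgeR or DESeq2, and 7 (5.34%) had an unadjusted edgeR p under 0.05, beside 5.89% of all genes tested. The medians of lists with at least 3 genes at 5 CPM ran from -0.01 to 0.09 (log2), beside 0.01 for all genes at that level. Col1a2, a collagen of fibroblasts, was 3368 and 4916 CPM in fibroblasts 4OHT and EtOH and 3336 and 5075 in sarcoma. The fibroblast and mesenchymal list had 15 of 18 genes at 5 CPM or more, and the largest difference among them was -0.12 (Thy1). Summed over the 18, without TMM, the 4OHT levels were 12901 CPM in fibroblasts, 13238 in sarcoma and 13474 in lymphoma. In the EtOH arm they were 21118, 22575 and 21628. Of 15 skeletal muscle genes, 14 were under 1 CPM in all 4 libraries, so muscle features that some sarcomas carry were near the floor under both labels. Their summed 4OHT levels, without TMM, were 8.28 CPM in fibroblasts, 8.18 in sarcoma and 8.38 in lymphoma. In the EtOH arm they were 1.49, 1.98 and 1.46. Among 8 Hox genes, which record position along the body, differences ran from -0.10 to 0.18. Ddx3y, on the Y chromosome, was 43.1 and 47.5 in fibroblasts and 42.5 and 48.1 in sarcoma. Median differences per nuclear chromosome lay between -0.02 and 0.03 over 21 chromosomes. Mdm2, the floxed gene, was 30.3 and 28.2 in fibroblasts 4OHT and EtOH and 30.9 and 28.3 in sarcoma. Trp53, the p53 gene, was 24.1 and 26.7 in fibroblasts and 28.3 and 23.9 in sarcoma (log2 fold change 0.03), though the cells are described as p53-/-. Such totals over a gene need not show the loss of some exons, so they do not settle the genotype.

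The 13 lists of culture state held 2 calls among 306 genes, near the 0.525% of all genes tested. They were Cebpb in the amino acid supply list and Pgd in the NRF2 list. Top2a, which untangles DNA in dividing cells, was 1038 and 1173 CPM against 1029 and 1190, and 0 of 25 mitosis genes were called by edgeR or DESeq2 or had an unadjusted p under 0.05. Of 25 serum and immediate early response genes, 0 were called by edgeR or DESeq2, but 7 (28%) had an unadjusted edgeR p under 0.05, beside 5.89% of all genes tested. The median of this list was 0.14 (log2) over all 25 and 0.05 over the 19 at 5 CPM or more. Among those 19 the largest difference was in Zfp36, an mRNA decay factor, at 0.40 (edgeR adjusted p = 0.31). Ifit3, an antiviral gene, was 1059 in fibroblasts 4OHT and 43.4 in fibroblasts EtOH, and 1072 and 46.3 in sarcoma.

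**Figure D3:**
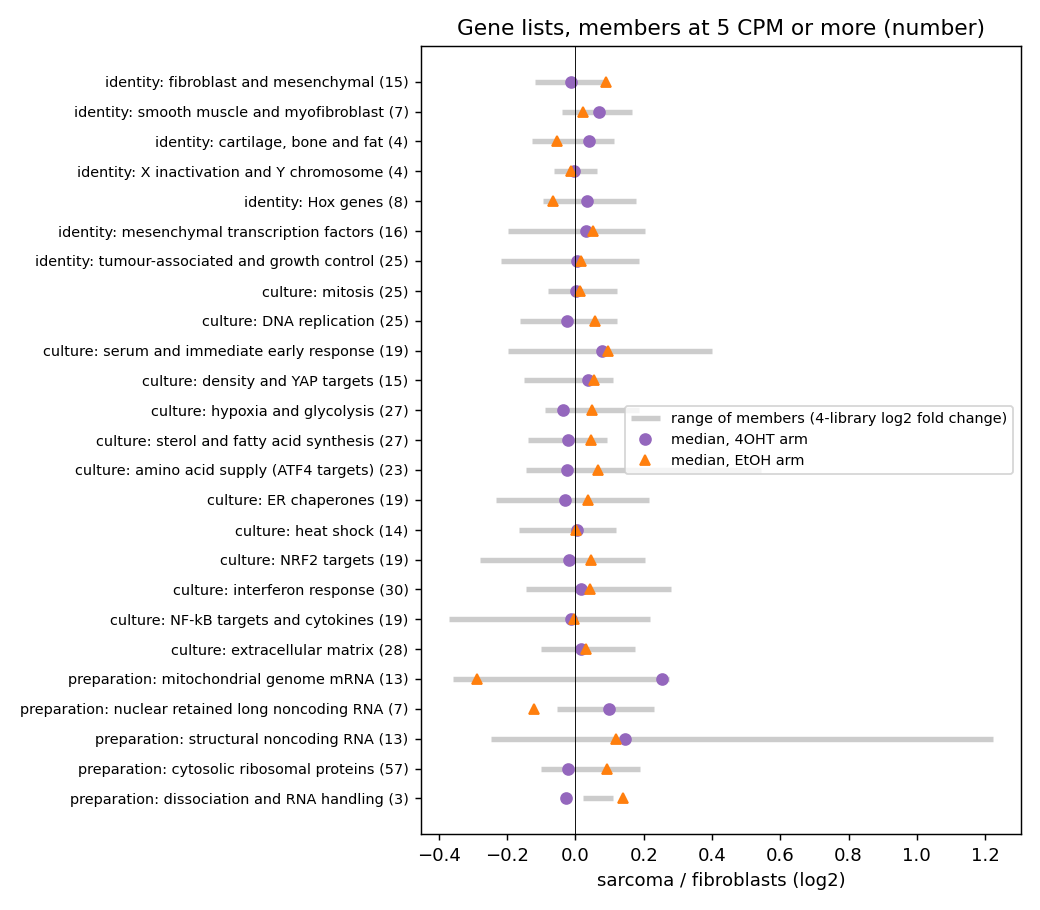
Median log2 ratio of sarcoma to fibroblasts in each arm for each gene list with at least 3 members at 5 CPM or more, with the range of the members' log2 fold changes as grey bars. Identity and culture lists lie near 0, and the widest bar is that of structural noncoding RNA.

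Preparation lists held 8 calls among 104 genes, where 0.525% of all genes tested were called. These lists, like those of identity and culture, were chosen with earlier results of these data known. Their rates are therefore a description and no test of preparation. An unadjusted edgeR p under 0.05 was found for 18 of the 104 (17.3%), beside 5.89% of all genes tested. Of the 8 calls, 5 were structural RNAs (Rny1, Rny3, Rnu12, Vaultrc5 and Snord17) and 3 were haemoglobin genes at low level. Haemoglobin marks red blood cells, so placing these 3 here and not among the identity lists affects the counts of both kinds. The share of estimated counts in snRNAs was 0.349% and 0.358% in fibroblasts 4OHT and EtOH and 0.860% and 0.50% in sarcoma. The mitochondrial ribosomal share was 0.749% and 0.700% against 0.565% and 0.371%. The ribosomal share was 1.54% and 2.92% against 1.64% and 0.202%. Sarcoma 4OHT thus had the highest snRNA share of the 6 libraries and sarcoma EtOH the lowest ribosomal shares. The 13 mRNAs of the mitochondrial genome had a median log2 ratio of 0.25 in the 4OHT arm, 11 of them higher in sarcoma, and -0.29 in the EtOH arm, 2 of them higher. The mean fragment length was 169 and 173 bases in fibroblasts and 171 and 171 in sarcoma. Across protein-coding genes the Spearman correlation of the log2 ratio with GC content was 0.01 in the 4OHT arm and 0.23 in the EtOH arm. The part of RNA selection and ribosomal depletion in the called differences was not tested, and with 1 library for each label and arm a preparation effect and a label effect cannot be told apart.

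**Figure D4:**
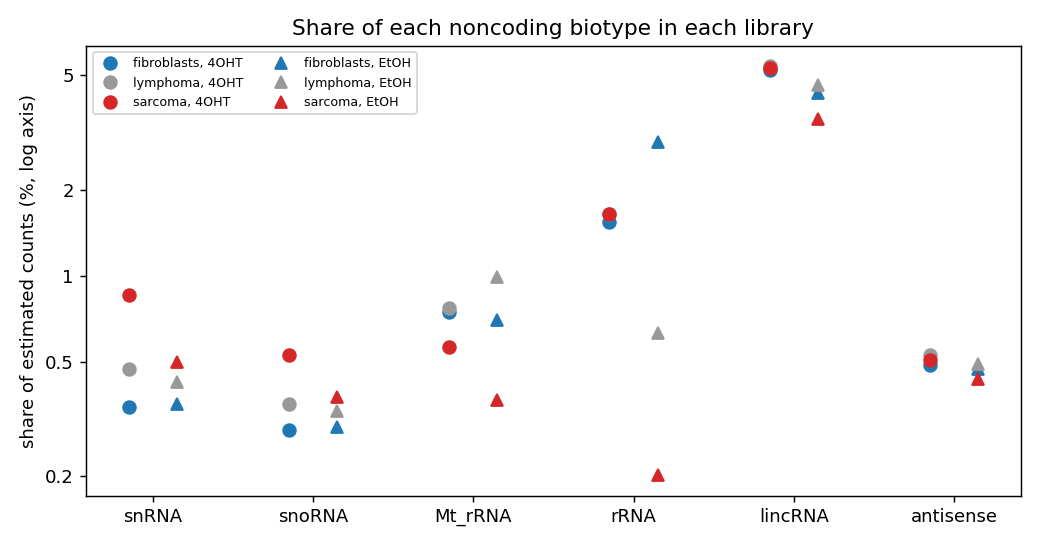
Share of estimated counts (%, log axis) in 6 noncoding biotypes for each library, circles for 4OHT and triangles for EtOH. The snRNA and snoRNA shares are highest in sarcoma 4OHT, and the rRNA share of sarcoma EtOH, 0.202%, is the lowest.

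Below 5 CPM, haemoglobin RNA, which marks red blood cells and their precursors, was called higher in sarcoma for Hbb-bs, Hba-a1 and Hba-a2, the 3 haemoglobin calls above; DESeq2 called none of them. The genes here were picked after their values were seen. Hbb-bs had 0 and 0 counts in fibroblasts 4OHT and EtOH and 146 and 22 in sarcoma, at least 52.3-fold and 5.66-fold higher if each fibroblast library is set at 3 counts, a floor for counting error only. Summed over 4 haemoglobin genes the counts were 0 and 0 in fibroblasts, 304 and 66 in sarcoma and 3 and 4 in lymphoma. Ighm, an antibody heavy chain, had 104 counts and H2-Ab1, an MHC class II chain, 99 counts in sarcoma 4OHT, but each had 1 in sarcoma EtOH. Ptprc, the pan-leukocyte marker CD45, had 14 counts in sarcoma 4OHT and 1 in each of the other 3 libraries compared. The part of blood cells in the other differences was not tested.

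The same fit on the other label pairs, added after the data were seen and reusing these libraries, gives a scale. Lymphoma against fibroblasts gave 17 calls (0.157%) under the same rule, 13 of them snRNAs higher in lymphoma and 2 protein-coding. Sarcoma against lymphoma gave 452 (4.16%), of which 153 were protein-coding genes higher in sarcoma and 150 protein-coding genes lower. The lymphoma libraries are labelled T-cell, but of the 15 T cell markers the summed level was 3.83 CPM in lymphoma 4OHT, against 4.07 in fibroblasts 4OHT and 4.34 in sarcoma 4OHT. In the EtOH arm it was 1.90 in lymphoma, 2.01 in fibroblasts and 2.27 in sarcoma. T cell markers were thus no higher under the lymphoma label than under the others. Over the 3 label pairs and both arms, the standard deviation of the log2 ratio across protein-coding genes ran from 0.0985 to 0.139.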

How the data were processed

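Total RNA was extracted and made into stranded libraries after ribosomal RNA removal, per the labels' protocols. The authors deposited estimated counts and TPM per target, made with kallisto 0.43.0 on GRCm38, per the submitters' processing notes; other settings are not given in the sources used here. Targets (75049 of 76055 matched to GENCODE M21) were summed per gene, and the estimated counts rounded. Genes passing edgeR 4.0.16 filterByExpr were fitted with arm and label as terms (TMM, quasi-likelihood test, two-sided, Benjamini-Hochberg over 15990 genes), which leaves 1 residual degree of freedom. The spread behind each SE and p-value was therefore moderated over all genes (prior degrees of freedom 15.5). Within-arm ratios used TMM-scaled CPM + 0.5. DESeq2 1.42.0, limma 3.58.1 on the deposited TPM, other scalings, filters and left-out libraries were alternatives. On simulated data with 15760 genes, the fit found 82% of genes changed by 0.5 (log2) and 100% of those changed by 1. In that simulation 4.5% of calls were false. Whether these rates hold for the calls in these libraries was not tested. Genes named were up to 12 higher and 12 lower with the largest change (11 were lower), 3 each way per biotype class, and the leading and most abundant members of lists; others are said to be chosen after their values were seen. The members and lists were chosen with earlier results of these data known. Counting intervals and floors cover counting error only.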

Additional observations from a re-analysis of the deposited data

Results flagged for a closer look

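Some shares of counts moved in opposite directions in the 2 arms, each from 1 library a label, so the difference between arms was not tested. The rRNA share differed by 0.0931 (log2, sarcoma over fibroblasts) in the 4OHT arm and by -3.86 in the EtOH arm. The share of antisense genes differed by 0.0615 and -0.12, that of sense intronic genes by 0.0515 and -0.19, and that of ribozymes, RMRP and RPPH1, by -0.15 and 0.0680.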

How the results depend on the processing

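The counts of called genes moved with most settings. Against 58 higher and 11 lower, DESeq2 gave 12 and 2, no filter on low counts 94 and 24, protein-coding genes alone 3 and 0, and leaving out small noncoding, ribosomal, mitochondrial and histone genes 5 and 4. Without the arm block, and with limma on TPM with either pseudocount, both were 0. Fitting all 6 libraries gave 37 and 3, and summing near-identical copies 30 higher. Leaving 1 library out of the fit on all 6 gave 30 to 123 higher and 7 to 79 lower: 123 and 79 without fibroblasts EtOH, 80 and 65 without fibroblasts 4OHT, and 30 and 10 without sarcoma 4OHT; where a library of the pair is missing, the direction rests on 1 arm. The cause of these shifts was not tested, except that fewer genes or libraries enter some fits. DESeq2 size factors in edgeR gave 58 and 11, and total counts 61 and 9. The count of genes 2-fold higher in both arms was 2 with total counts, with a mean of at least 1 CPM and with TPM, and 0 for protein-coding genes alone, as was the count 2-fold lower. Of the named genes, the lincRNA Gm23925 was not called in the fit on all 6 libraries and turned to -0.0285 there without sarcoma 4OHT, and no other changed sign among called genes. No paired analysis was possible because the labels give no replicate numbers; the block is the treatment arm.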

Other observations

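Some genes stood apart in 1 sarcoma library only, and were picked after their values were seen. The chromosome 17 lincRNA AY036118 was 2808 and 5563 CPM in fibroblasts 4OHT and EtOH, 2628 in sarcoma 4OHT and 243.8 in sarcoma EtOH, with a log2 ratio of -4.51 in the EtOH arm and -0.10 in the 4OHT arm (edgeR adjusted p = 0.31). Nap1l1, a histone chaperone, was 29.0 and 36.9 in fibroblasts and 25.8 in sarcoma 4OHT, but 5.17 in sarcoma EtOH (edgeR adjusted p = 0.15). Dlx6, a homeobox transcription factor, was 2.36 and 3.17 in fibroblasts, 13.5 in sarcoma 4OHT and 1.66 in sarcoma EtOH (edgeR adjusted p = 0.62). None of these passed the test.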
